A study of Mus musculus with 2 samples.

Results

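The Schlafen genes encode a family of cytoplasmic and nuclear proteins of mouse and human that many cells make after interferon. The rows described here are those of the deposited table whose gene symbol is Slfn followed by a digit. They were 7 of 4898 rows, Slfn2, Slfn3, Slfn4, Slfn5, Slfn8, Slfn9 and the pseudogene Slfn10-ps, of which 6 belong to protein-coding genes. The cells were of the CD8α+ dendritic cell line DC1940, which comes from C57BL/6 mice and is wild type in the labels. They had been transduced with an empty vector and given pIC, a double-stranded RNA made in vitro and sensed by TLR3. Poly(A) RNA of 1 group of 2 libraries was sequenced, and the labels do not say for how long these cells were stimulated. The table gives 1 value per gene for the stimulated cells in FPKM, fragments scaled by transcript length and by the number of mapped fragments. Its header names no replicate, and the value was taken as the authors' combination of both libraries. No value below therefore has an SD, a number of replicates or a test, and the depth of the libraries is unknown. All cells come from a single line, and in bulk RNA fewer cells expressing a gene and less RNA per cell cannot be told apart.

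Schlafen proteins share a core domain at their amino-terminal end, which in several members binds or cuts transfer RNA and thereby changes which messages are translated. Mouse genes are sorted into size group I (Slfn1 and Slfn2, little more than the core), size group II (Slfn3 and Slfn4, with an added linker domain) and size group III (Slfn5, Slfn8, Slfn9, Slfn10-ps and Slfn14, with a further helicase-like domain). Double-stranded RNA sensed through TLR3 leads to interferon beta. The interferon receptor then activates a complex of transcription factors, with IRF9 among them, which binds a DNA element known as the ISRE. In dendritic cells and macrophages several Schlafen genes are known as targets of this route.

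The promoters of the Schlafen genes are shown first. Of these, 3 held the ISRE letters, and a run of letters was picked from another 4. RefSeq promoters of 300 bases (GRCm38.p6, 250 bases before to 50 after the start site) were found for 8 of the 9 annotated Slfn genes. The ISRE was searched on both strands as GAAA, any 2 bases and GAAA again. Slfn5, Slfn8 and Slfn9, all of size group III, held it, while Slfn14 of the same group did not. In the following windows the capitals mark the match, which in Slfn8 and Slfn9 lies on the opposite strand to the gene. The windows are chr11:82951927-82951976 on the plus strand for Slfn5, chr11:83020829-83020878 on the minus strand for Slfn8 and chr11:82991846-82991895 on the minus strand for Slfn9.
Slfn5: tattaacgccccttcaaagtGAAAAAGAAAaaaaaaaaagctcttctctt
Slfn8: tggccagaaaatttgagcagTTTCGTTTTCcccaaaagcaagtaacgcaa
Slfn9: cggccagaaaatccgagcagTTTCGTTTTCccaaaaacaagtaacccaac
The matches began 155 bases before the start site in Slfn5, 48 in Slfn8 and 45 in Slfn9. RefSeq has a second start site for Slfn8, from which the same match began 136 bases upstream. The Slfn5 window, from 82951852 to 82952151, lies inside the RefSeq gene, whose first base is 82951349. The Slfn5 match thus lies within the annotated gene, and no window at that first base was searched. The matched letters were identical in Slfn8 and Slfn9, and 84.9% of 292 aligned bases of these promoters were the same. The ISRE letters were held by 3.99% of 27025 genes with a RefSeq promoter, and by 3 of the 8 Slfn genes. Among genes with a promoter in other interferon-induced families, 4 of 8 OAS, 5 of 6 IFIT and 5 of 5 GBP genes held them. A match is a description of letters and does not show a bound site.

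The promoters of Slfn1, Slfn2, Slfn3 and Slfn4, the genes of size groups I and II, held no ISRE letters in these windows. The longest run of letters found in all 4 was ACTTCCTGG, a stretch that holds the core bound by ETS factors such as PU.1, a regulator of myeloid genes. It was picked as common to these 4 after they had been read, so its presence in all 4 follows from the choice. On either strand 0.999% of genes with a promoter held it, a share that cannot test a run picked this way. In the next windows the capitals mark the stretch. They are chr11:83116726-83116774 for Slfn1, chr11:83065037-83065085 for Slfn2, chr11:83191268-83191316 for Slfn3 and chr11:83175093-83175141 for Slfn4, all on the plus strand.
Slfn1: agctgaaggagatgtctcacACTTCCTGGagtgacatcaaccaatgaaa
Slfn2: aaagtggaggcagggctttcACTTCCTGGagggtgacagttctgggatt
Slfn3: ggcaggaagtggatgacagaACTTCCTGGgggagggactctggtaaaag
Slfn4: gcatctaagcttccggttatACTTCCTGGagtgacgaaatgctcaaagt
The stretch began 74 bases before the start site in Slfn1, 55 in Slfn2, 42 in Slfn3 and 73 in Slfn4. Slfn5, Slfn8, Slfn9 and Slfn14 did not hold it, but no run common to them was sought. In Slfn2 alone of the 8 genes, the stretch overlapped the composite element of ETS and IRF factors (GGAA, any 2 bases and GAAA) on the opposite strand. That composite match began 59 bases before the start site, and 3.16% of genes with a promoter held its letters. In the Slfn2 window chr11:83065033-83065082 the capitals mark it.
Slfn2: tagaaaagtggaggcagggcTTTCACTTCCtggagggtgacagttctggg
The AP-1 element TGANTCA was found in Slfn4 and Slfn14 (8.97% of genes with a promoter), and the STAT element TTCNNNGAA in 0 of the 8 (9.55% of genes with a promoter).

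**Figure D1:**
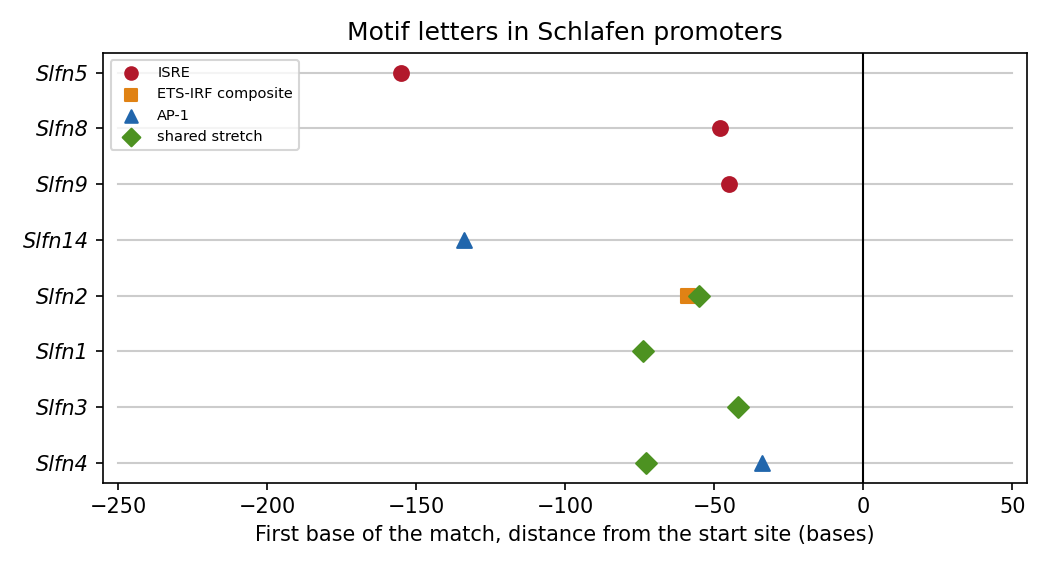
Position of motif letters in the promoters of 8 Slfn genes, as the distance of the first matched base from the start site in bases, where 0 is the start site and grey lines are the searched windows. The start site of the Slfn5 window lies within its RefSeq gene. ISRE letters (circles) stand in Slfn5, Slfn8 and Slfn9. The shared stretch (diamonds), picked as common to Slfn1, Slfn2, Slfn3 and Slfn4, stands from 74 to 42 bases before the start site.

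Slfn2 and Slfn5 carried most of the signal of the listed Schlafen rows after pIC. Slfn2 had 878 FPKM and Slfn5 417 FPKM, against a median of 9.68 FPKM over all rows and an upper quartile of 33.4. Slfn8 and Slfn9 followed at 105 and 99.0 FPKM, Slfn10-ps and Slfn3 stood at 17.1 and 14.3, and Slfn4 was lowest at 4.11. Of the 7 rows, 4 were at or above the upper quartile, where 25.0% of all rows stand, 2 lay between the median and that quartile, and Slfn4 lay under the median. At 100 FPKM or more there were 3 Schlafen rows, a level that 9.60% of all rows reached, and Slfn9 lay just under it. The median of the 7 listed rows, called the family median below, was 99.0 FPKM. They made up 0.143% of all rows and 0.546% of the FPKM summed over the table.

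**Figure D2:**
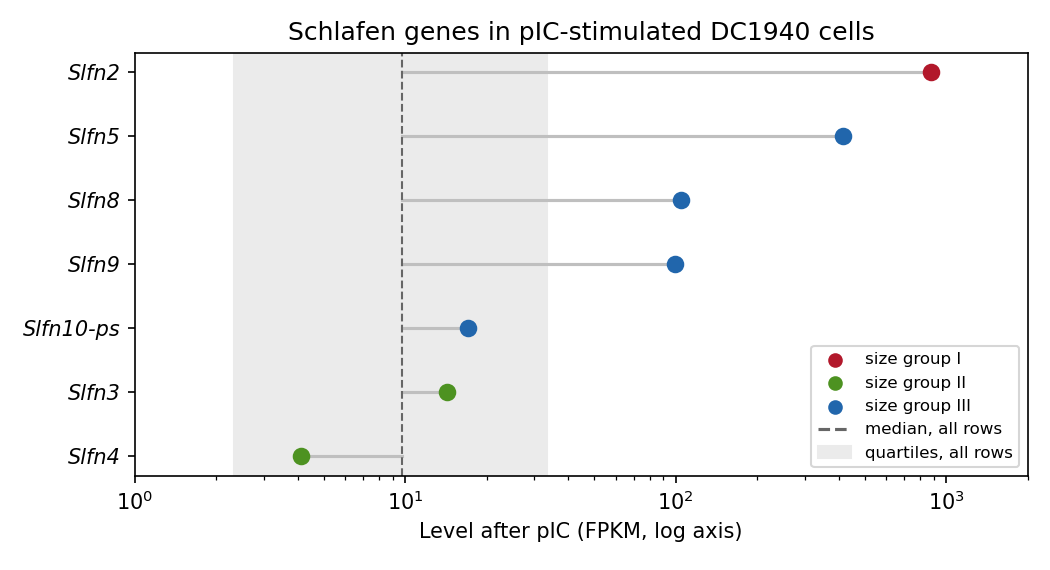
Level of each Schlafen row in FPKM on a log axis, coloured by size group, with the quartiles (grey band) and the median (dashed line) of all 4898 rows. Slfn2, Slfn5, Slfn8 and Slfn9 lie to the right of the band, Slfn10-ps, Slfn3 and Slfn4 within it.

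In size group I, Slfn2 ranked 29 from the top of the table (percentile 99.4) and held 57.2% of the family sum. That sum is the FPKM of the 7 listed rows, without the unlisted Slfn1 and Slfn14, whose levels are unknown. Slfn2 keeps T cells and monocytes quiescent in mice and protects transfer RNA from cleavage under oxidative stress. The value of Slfn2 was 2.11 times that of Slfn5 and 214 times that of Slfn4, the widest gap among the listed rows. Its row covers chromosome 11 from 83065112 to 83070678 on mm10, an interval that also holds the antisense transcript Gm20234. The strand setting of the counting was not stated. In either orientation, 0 of the 50-base words of Slfn2 transcripts occurred in genes outside the family, Gm20234 included. Whether reads of the antisense transcript entered the value was not tested. Slfn1, the other gene of this group, which slows T cell growth when overexpressed in mice, was not among the listed rows.

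In size group III, the 4 rows held 41.6% of the family sum, and their median was 102 FPKM. Slfn5, whose human counterpart restricts herpesvirus transcription, ranked 90 from the top (percentile 98.2) with 27.2% of the family sum. Its row runs from 82911253 to 82964850 on chromosome 11, which is 53.6 kb, while RefSeq places Slfn5 itself in the 13.5 kb from 82951349 to 82964850. The first part of the interval is that of Unc45b, a myosin chaperone gene of muscle on the same strand, although the row carries the accession of Slfn5 alone. Whether reads of Unc45b entered the value was not tested. The antisense gene Slfn5os also lies within the interval, and 7.38% of the 50-base words of Slfn5 transcripts occur in it.

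Slfn8 and Slfn9 encode long Schlafen proteins with the helicase-like domain, and mice that overexpress Slfn8 make fewer T cells. They stood side by side in level, at 105 FPKM (percentile 90.8) and 99.0 FPKM (percentile 90.3), a ratio of 1.06. They also lie next to each other on the minus strand, at 83002158 to 83020810 for Slfn8 and 82980303 to 82991830 for Slfn9. Slfn10-ps, a transcribed pseudogene on the same strand at 83028126 to 83040533, had 17.1 FPKM (percentile 61.5), and Slfn9 was 5.78 times higher. Slfn14, an endonuclease gene of platelets and red cell precursors, was not among the listed rows.

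In size group II, Slfn3 lay above the median of all rows and Slfn4 under it. Slfn3, known for the differentiation of intestinal epithelium in rats and mice, had 14.3 FPKM (percentile 57.9; 83191330 to 83215154). Slfn4, an interferon-responsive gene of mouse macrophages and other myeloid cells, had 4.11 FPKM (percentile 34.5; 83175186 to 83190216). Slfn3 was thus 3.49 times higher than Slfn4, and together they held 1.20% of the family sum.

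Sequence likeness limits how far neighbouring members can be told apart. Coding sequences of Slfn8 and Slfn9, each of 2730 bases, were identical at 92.7% of aligned bases, with a longest identical run of 139 bases. Slfn3 and Slfn4 were identical at 92.3% of 1785 aligned bases. The other pairs lay between 57.6% (Slfn1 and Slfn5) and 75.3% (Slfn1 and Slfn4). The coding sequence of Slfn2, of 1134 bases, was closest to that of Slfn3, at 75.2%, and that of Slfn5, of 2652 bases, to that of Slfn9, at 63.6%. The most alike pairs thus had near-equal levels in one case and levels 3.49 times apart in the other.

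Of all the 50-base words in the transcripts of each gene, 19.7% of those of Slfn10-ps occurred in transcripts of another Slfn gene. The share was 14.6% for Slfn8, 11.2% for Slfn9, 8.15% for Slfn4, 7.39% for Slfn3 and 4.27% for Slfn2. Slfn5 and Slfn14 shared 0 such words with other Slfn genes. Words found in transcripts of genes outside the family made up 11.1% of those of Slfn5, spread over 635 genes, with Slfn5os among them. They made up 10.2% of those of Slfn3, over 67 genes, and 4.49% of those of Slfn4. Of these words, 220 of 347 in Slfn3 and 161 of 180 in Slfn4 occurred in Gm11427, a transcribed pseudogene within the cluster. All 69 words that Slfn2 shared were with Slfn4, where they made up 1.72% of its words. How the authors' counting divided reads over such stretches was not stated. The values of Slfn2, Slfn5, Slfn8, Slfn9, Slfn10-ps, Slfn3 and Slfn4 are therefore given as uncertain.

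**Figure D3:**
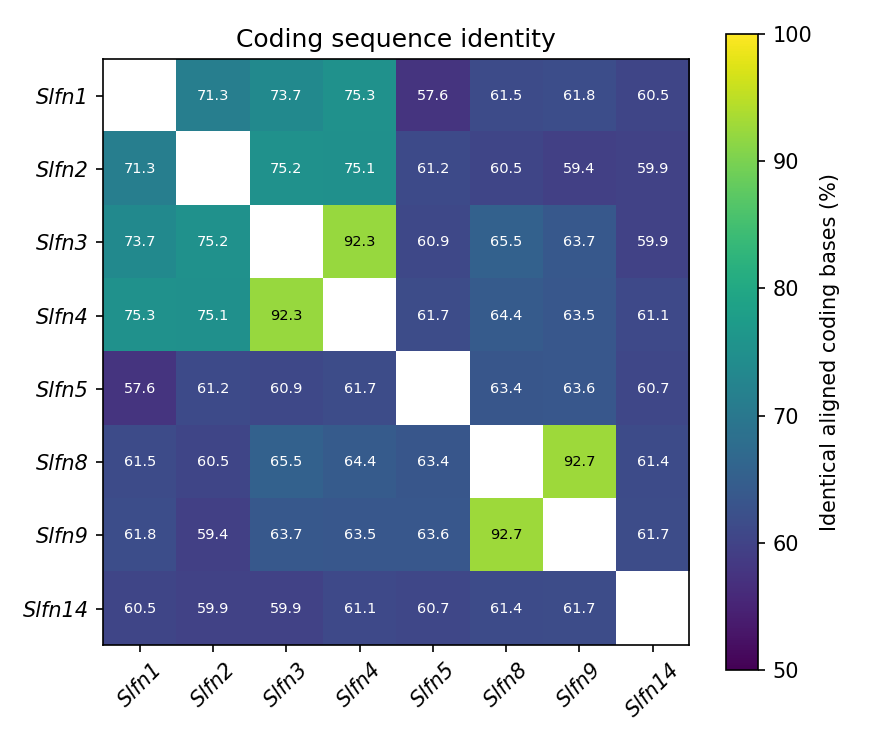
Share of aligned coding bases that are identical, in percent, for each pair of 8 Slfn genes, from the longest coding sequence of each gene. Slfn8 with Slfn9 (92.7%) and Slfn3 with Slfn4 (92.3%) stand apart from all other pairs, which reach at most 75.3%.

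The Schlafen genes form a single cluster of 335 kb on chromosome 11, from 82951349 to 83286726 on mm10. Along it the listed levels alternated rather than changed in one direction: 417 FPKM at Slfn5, 99.0 at Slfn9, 105 at Slfn8, 17.1 at Slfn10-ps, 878 at Slfn2, 4.11 at Slfn4 and 14.3 at Slfn3. Slfn1 lies between Slfn2 and Slfn4, so the highest and the lowest listed member are separated by an unlisted one. Over the cluster and 500 kb on either side of it, 8 other rows were listed, with a median of 35.6 FPKM. Of these, 2 were at 100 FPKM or more, AI662270 inside the cluster and Ccl5 outside it. The listed rows next to the Slfn rows were the DNA repair gene Rad51d on one side, at 2.95 FPKM, and on the other the noncoding RNA gene AI662270, which lies between Slfn3 and Slfn14, at 346 FPKM. Beyond it came Ap2b1, a subunit of the clathrin adaptor, at 70.0 FPKM. Ccl5, a T cell-attracting chemokine gene 239 kb from the end of the cluster, was the highest row in the window at 12867 FPKM.

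**Figure D4:**
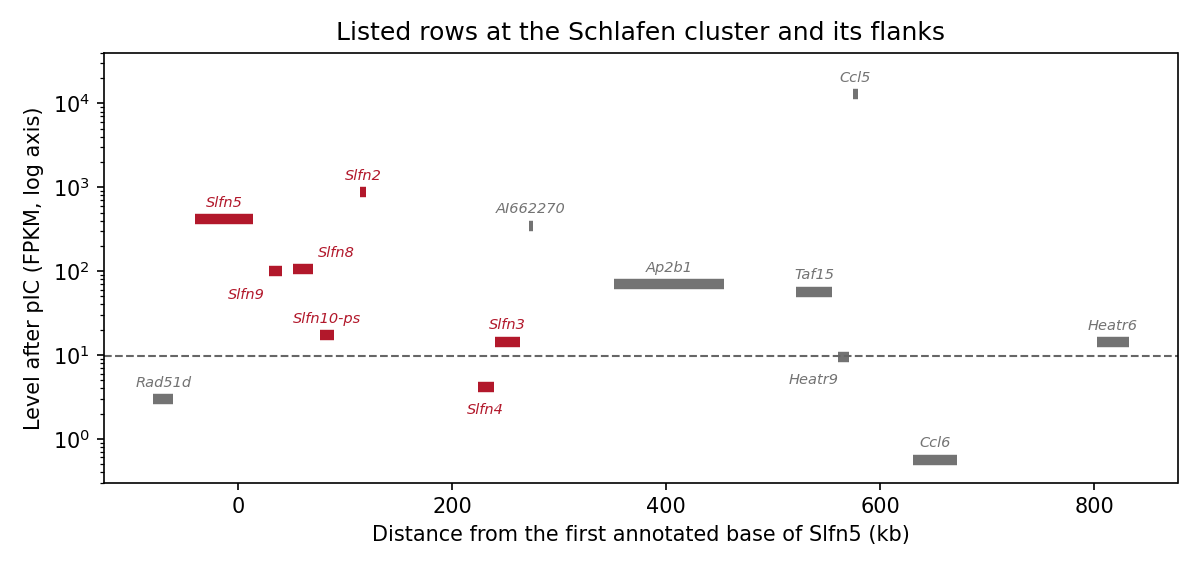
Level in FPKM (log axis) of the 15 listed rows at the Schlafen cluster and within 500 kb of it, against the distance from the first annotated base of Slfn5 in kb. Bars span the row's interval, red for Slfn genes and grey for others, and the dashed line is the median of all rows; neighbouring Slfn rows range from 4.11 to 878 FPKM.

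The table's sheet is named for genes that differ between unstimulated and stimulated cells, but neither the sign nor the size of any difference was analysed here. Of the 9 annotated Slfn genes 7 had a row, and 22.2% of RefSeq protein-coding genes had one. Because listed rows define the members, nothing is read from that count.

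For other interferon-induced families, medians were likewise taken over listed genes alone, and levels of unlisted members are unknown. Of RefSeq protein-coding genes 22.2% had a row. The Schlafen median of 99.0 FPKM was close to that of the OAS family (98.2 FPKM, 6 of 12 genes listed), whose enzymes make the activator of RNase L. It was lower than that of the IFIT family (206 FPKM, 4 of 6 listed), which binds foreign RNA caps, and higher than that of the GBP family (27.8 FPKM, 7 of 11 listed), GTPases that attack pathogen vacuoles. As median log2(FPKM + 1), the Schlafen family differed from these by 0.33, -1.03 and 1.80. The OAS median is the midpoint of Oas3 (157 FPKM) and Oas1a (38.9 FPKM), with no listed OAS gene between them. Its closeness to the Schlafen median is thus not that of any OAS gene. The listed members spanned 214-fold in the Schlafen family, 1119-fold in OAS, 5.17-fold in IFIT and 140-fold in GBP. With 4 to 7 listed genes a family and no replicate values, these differences were not tested. Slfn2 stood below Oasl1 (2552 FPKM) but above Oasl2 (413), Oas3 (157), Ifit2 (439), Ifit1 (241), Ifit3 (172), Gbp2 (511), Gbp2b (104) and Gbp3 (49.8).

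**Figure D5:**
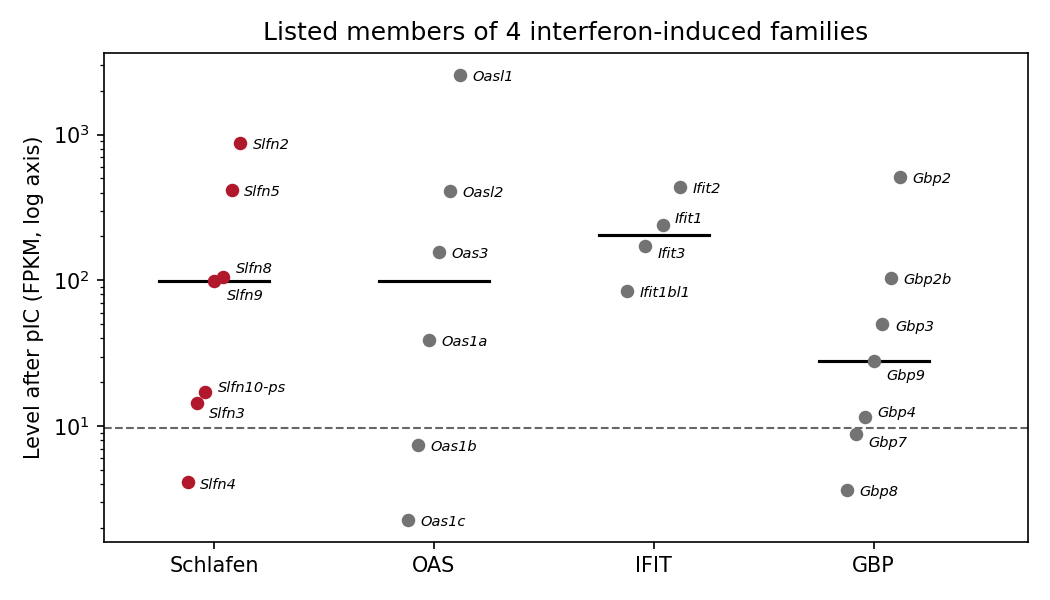
Level in FPKM (log axis) of each listed member of the Schlafen, OAS, IFIT and GBP families. Bars are the medians of listed members, and the dashed line is the median of all rows. The Schlafen and OAS medians lie at 99.0 and 98.2 FPKM, with IFIT above and GBP below them.

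Of the type I interferon receptor, its kinases and ISRE-binding factors, the 6 genes considered all had rows, with a median of 56.1 FPKM. Of RefSeq protein-coding genes 22.2% had a row. Stat2 had 181 FPKM, the kinase gene Tyk2 89.7 and Irf9, a DNA-binding factor, 74.3. Of 8 interferon regulatory factor genes 4 were listed, with Irf7 at 487 FPKM, Irf5 at 466 and Irf1 at 241. Of 6 genes of feedback on this pathway 5 were listed, led by Usp18, which blocks the receptor, at 599 FPKM, and the phosphatase genes Ptpn6 at 177 and Ptpn2 at 44.6.

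Rows were also found for genes of the processes in which Schlafen proteins act, beside the 22.2% of RefSeq protein-coding genes with a row. Of 7 genes of transfer RNA cleavage and protection 1 was listed, the transfer RNA processing nuclease gene Elac2, at 27.2 FPKM. Of 5 kinases that slow translation or sense stalled ribosomes 2 were listed. Eif2ak2, the kinase activated by double-stranded RNA, had 141 FPKM, though its row carries the accessions of 2 genes, and the ER stress kinase gene Eif2ak3 had 2.29 FPKM. Of 7 genes of single-stranded DNA binding and replication stress, where human SLFN11 acts, 3 were listed, Rpa1 at 57.5 FPKM, Rpa3 at 38.5 and Atr at 11.5.

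Of 10 markers of the labelled cell type, CD8α+ dendritic cells, 7 were listed, at 9.81 to 387 FPKM. Of RefSeq protein-coding genes 22.2% had a row. Xcr1 had 387 FPKM, Cd8a 292 and Ly75 106, while Batf3, Irf8 and Itgae were not listed. Of 4 markers of other conventional dendritic cells 1 was listed (Itgam, 0.176 FPKM), of 4 of plasmacytoid dendritic cells 1 (Tcf4, 5.41 FPKM) and of 4 of macrophages 2 (Cd68, 33.2 FPKM, and Adgre1, 0.460 FPKM). Cd68 stood above Cd24a (24.9 FPKM) and Cadm1 (9.81 FPKM) of the CD8α+ list. Of 4 markers of T and B cells 0 were listed. Levels of unlisted markers are unknown.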

How the data were processed

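The deposited FPKM values were computed by the authors. The column header names pIC and no replicate, so its 1 value per gene was taken to stand for both libraries. How both were combined was not stated. Per the submitters' processing notes, the tools were Cufflinks 2.2.1, TopHat2 2.1.0 and FastQC 0.11.5, with the build mm10. There was 1 row that was not used here.

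The Schlafen members, gene lists and rules were chosen with earlier results of these data known. Named were all Schlafen rows, annotated Slfn genes without one, the 3 highest listed members of each other list, the rows next to the cluster and the highest within 500 kb. An item that the rule names is not reported here. Percentiles are ranks among all rows, and log2 values carry a pseudocount of 1. Interval starts count from 0 in the table and had 1 added. Sequences came from RefSeq (GRCm38.p6) and GENCODE M21. Words of 50 bases were compared with all GENCODE transcripts in both orientations, as read length and strand are not given here. Coding sequences were aligned globally, and identity counts aligned bases without gaps. Functions were tested on simulated data. Alternatives were other reference sets of rows, floors, a pseudocount of 0.1 and leaving out the pseudogene. Tools were Python 3.11.15, pandas 2.3.3, numpy 2.4.6, Biopython 1.88 and matplotlib 3.10.9. Without a known depth, intervals and detection limits were left out.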

Additional observations from a re-analysis of the deposited data

How the results depend on the processing

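Without a spread between libraries, any change in a value counts as a change here. The family median of 99.0 FPKM did not change with matching by accession. With rows of 1 gene or a floor of 1 FPKM it could not change. All 7 rows carry accessions of 1 gene, and the lowest has 4.11 FPKM. Without the pseudogene Slfn10-ps, a setting chosen after seeing the data, the family median was 102. The 4 rows at or above the upper quartile stayed 4 in all 3 settings tried. Leaving out Slfn10-ps, at 17.1 FPKM under the quartile of 33.4, could not change that count. Among rows of 1 FPKM or more, the percentiles of Slfn2, Slfn5, Slfn8 and Slfn9 were 99.3, 97.9, 89.3 and 88.7, and those of Slfn10-ps, Slfn3 and Slfn4 were 55.2, 51.0 and 23.8. These are lower by construction, since low rows were left out. Among rows of 1 protein-coding gene, Slfn10-ps, Slfn3 and Slfn4 had percentiles of 61.2, 57.5 and 34.1, and the other 4 did not change. The log2 difference of the Schlafen median from the OAS, IFIT and GBP medians was 0.34, -1.04 and 1.83 with a pseudocount of 0.1, and 0.37, -0.99 and 1.84 without Slfn10-ps. No difference changed sign. Leaving out each library could not be run with 1 value per gene. No paired analysis was possible because the libraries form 1 group and share 1 column.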

Other observations

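All 7 Schlafen rows stand within the first 2406 rows of the table (49.1%), which are in rising order of locus number, at row 325 to 328 for the genes on the plus strand and row 403 to 405 for those on the minus strand. Between the locus numbers of Slfn2 and Slfn4 there is 1 number with no row, at the place where RefSeq has Slfn1.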
